A study of Mus musculus with 12 samples.

Results

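The antioxidant and NRF2 target genes are 41 mouse genes, out of 53700 genes in the count table, that were listed by symbol for their roles. They comprise the transcription factor NRF2 (Nfe2l2) and its repressor KEAP1, quinone reductases, and the enzymes that make, recycle and use glutathione. Also among them are enzymes of NADPH supply and the pentose phosphate pathway, the thioredoxin and peroxiredoxin systems, the superoxide dismutases and catalase, and 2 repair enzymes. All 41 were found in the table, and all 41 had enough counts to be tested.

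RNA of whole hearts from male mice, 6 ac-WT and 6 ac-CYB5R3-KO, was sequenced, to ask which transcripts differ early after the flavoprotein CYB5R3, an NADH-dependent reductase of cytochrome b5 and of coenzyme Q, is deleted in cardiomyocytes. The ac-WT mice were CYB5R3wt/wt, Myh6-CreERT2 and the ac-CYB5R3-KO mice were CYB5R3fl/fl, Myh6-CreERT2, so both groups carried 1 copy of a Cre recombinase that is driven by the cardiomyocyte promoter Myh6 and activated by tamoxifen. All mice were 10 to 13 weeks old when tamoxifen began, received 33 mg/kg/d on 5 consecutive days, and gave their hearts 5 days after the last dose. The mice came from a mixed FVB/B6 background that had been backcrossed to C57BL/6J. The deletion is limited to cardiomyocytes while the RNA is from all cells of the heart, and in such bulk samples fewer cells of a type and less RNA per cell cannot be told apart.

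NRF2 is held in the cytoplasm by KEAP1, which hands it to a ubiquitin ligase for degradation. When oxidants or electrophiles modify cysteines of KEAP1, NRF2 accumulates, enters the nucleus, pairs with small MAF proteins and binds the antioxidant response element upstream of its targets. These targets include the quinone reductase NQO1, both subunits of glutamate-cysteine ligase, thioredoxin reductase 1, sulfiredoxin and several glutathione transferases. In the heart, much of the hydrogen peroxide comes from the mitochondrial respiratory chain, and SOD2, PRDX3, TXN2 and TXNRD2 act inside mitochondria.

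The core of the antioxidant response element, TGACNNNGC, was searched on both strands of the 250 bases upstream of each start site in RefSeq promoters of GRCm38.p6. Of the 41 genes, 35 were matched in this table, and 8 of them (22.9%) held the core, namely Nfe2l2, Gclm, Gsta3, Sod1, Prdx1, Txnrd1, Mgst1 and G6pdx. The core was present in 3112 (11.5%) of all 27025 genes with a promoter there. Of the 11 matched genes with an unadjusted p under 0.05 in the comparison of hearts, 3 held the core (Gclm, Gsta3 and Sod1). Windows around the core are shown for these 3, and for the NRF2 target Prdx1, in which the core overlaps the related motif TGANTCA, found in 7.82% of all genes on either strand. Each is written 5′ to 3′ along the gene, with the core in capitals, and a core on the opposite strand reads GCNNNGTCA.
Gclm, chr3:122245397-122245457, plus strand: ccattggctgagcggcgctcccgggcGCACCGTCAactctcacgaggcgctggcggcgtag
Gsta3, chr1:21240438-21240498, plus strand: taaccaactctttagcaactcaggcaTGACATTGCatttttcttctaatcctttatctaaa
Sod1, chr16:90220680-90220740, plus strand: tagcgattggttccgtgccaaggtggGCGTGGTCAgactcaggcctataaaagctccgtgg
Prdx1, chr4:116685440-116685500, plus strand: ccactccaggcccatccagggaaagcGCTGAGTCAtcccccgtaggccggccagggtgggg
A match describes these letters only. Binding was not measured, and Gsta3 and Sod1 were lower while Gclm was higher in ac-CYB5R3-KO hearts at an unadjusted p under 0.05.

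Between 43393183 and 53754284 reads were counted on genes per heart, so these genes were limited in precision by variation from mouse to mouse more than by counting. Levels are given as CPM, read counts scaled to a common library size with the TMM factors of edgeR, which lower the weight of a few very abundant genes. The targeted gene, Cyb5r3, was between 81.9 and 185 CPM in ac-WT hearts and between 42.0 and 67.4 CPM in ac-CYB5R3-KO hearts, with all 6 ac-CYB5R3-KO hearts below all ac-WT hearts (log2 fold change -1.22 ± 0.19 (SE), adjusted p = 0.0450, edgeR). Hearts 2 and 3 of the ac-WT group stood apart from the other 10. Their TMM factors were 0.570 and 0.723, against 0.988 to 1.22 in the other hearts. The summed level of 14 cardiomyocyte markers was 61753 and 48830 CPM in them, while the remaining ac-WT hearts had 27190 to 31057 CPM and the ac-CYB5R3-KO hearts 20123 to 34357 CPM (p = 0.0563 between groups, exact permutation test), 6 of the 14 were lower at an unadjusted p under 0.05, and none was at 0 in any heart. Their summed level of 9 fibroblast markers was 2274 and 2344 CPM, against 5354 to 10072 CPM in the other 10 hearts, and that of 8 macrophage markers was 441 and 474 CPM, against 673 to 1762 CPM. Mitochondrially encoded genes took 35.3% and 34.8% of their counts, against 24.0% to 30.1% in the other 10. The 5 measured red blood cell markers summed to between 222 and 4487 CPM in ac-WT and between 1323 and 12228 CPM in ac-CYB5R3-KO hearts (p = 0.0628, exact permutation test), and 3 of the 5 were higher at an unadjusted p under 0.05. Cartilage and airway markers, 7 genes, summed to between 4.13 and 35.6 CPM in ac-WT and between 37.9 and 96.9 CPM in ac-CYB5R3-KO hearts. Their mean log2(CPM + 1) was higher (p = 0.00433, exact permutation test), with 3 of the 4 tested higher at an unadjusted p under 0.05. Col2a1, Col9a1, Scgb1a1 and Sftpc were at 0 in at least 1 heart. Each permutation p of a marker list is for the mean log2(CPM + 1) of its genes, not for the sums. The part of these differences in the results was not tested. Counts of members, and the fold changes of the 13 members with an unadjusted p under 0.05, are also given without ac-WT hearts 2 and 3.

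None of the 41 genes differed between the groups at an adjusted p under 0.05 in the quasi-likelihood test of edgeR, in which 18 of 17847 genes (0.101%) did. The lowest adjusted p was 0.176, of Gpx3, the secreted glutathione peroxidase, whose mean level in ac-CYB5R3-KO hearts was 196% of that in ac-WT hearts. At an unadjusted p under 0.05, 5 genes (12.2%) were higher in ac-CYB5R3-KO hearts, against 4.91% of all genes tested. These were Gclm, Gss and Gsr of glutathione synthesis and recycling, Gpx3, and the methionine repair enzyme Msra. In the other direction 8 genes (19.5%) were lower, against 9.73% of all genes tested, namely the dismutases Sod1 and Sod2, the mitochondrial reductase Txnrd2, the peroxiredoxin Prdx5 and the glutathione transferases Gsta3, Gstm1, Gstp1 and Mgst3. DESeq2 called 2 of the 41 genes at an adjusted p under 0.05, Gpx3 (0.0200) and Gss (0.0457), where it called 437 genes (2.45%) of all those with an adjusted p. The limma-voom test called 0 of the 41.

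The direction of the whole group was mixed. Fold changes were positive in 22 genes and negative in 19, with a median of 0.05 on the log2 scale, against -0.01 over all genes tested. For no member did the 2 groups lie fully apart, which 276 genes (1.55%) of all those tested did. All 8 lower genes were highest in ac-WT heart 2 and second highest in ac-WT heart 3, and 4 of the 5 higher genes had their lowest level in one of these hearts. Without these 2 hearts, 1 gene (2.44%) was lower at an unadjusted p under 0.05, Sod1, against 4.54% of all genes, and 3 (7.32%) were higher, Gss, Gpx3 and Msra, against 3.44% of all genes. When libraries were scaled by total counts the median of all genes moved to 0.26 and that of the 41 genes to 0.27. At an unadjusted p under 0.05, 0 of the 41 were then lower and 5 higher, where 367 of all 17847 genes were lower and 1686 higher. With TMM factors 1737 of all genes were lower and 877 higher, so the background of higher genes rose while the count of higher members did not. Relative to the shifted median, all 8 lower genes remained below it and all 5 higher genes above it.

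**Figure D1:**
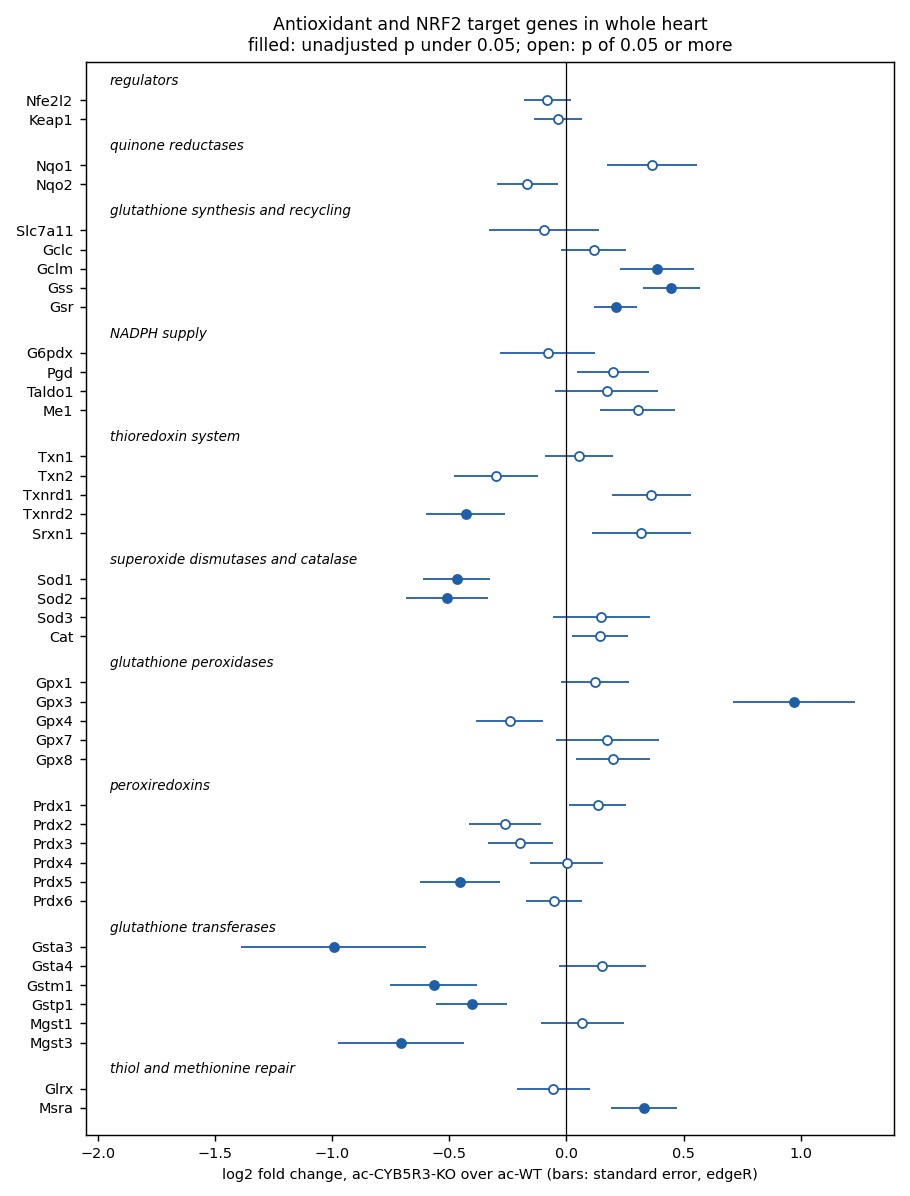
Log2 fold change of each of the 41 genes in ac-CYB5R3-KO over ac-WT hearts (x axis), with genes grouped by role on the y axis. Points are edgeR estimates from 6 hearts per group, bars are their standard errors, and filled points have an unadjusted p under 0.05. The filled points on the right are 3 genes of glutathione synthesis and recycling, Gpx3 and Msra, and 4 of the 8 on the left are glutathione transferases.

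Positions given below are those of the GENCODE annotation of the mouse assembly NCBIM37, and all members are protein-coding genes. Neither of the regulators passed the test. Nfe2l2 (chr2:75513570-75542698, minus strand), which encodes NRF2, ran from 33.8 to 46.4 CPM in ac-WT hearts (median 39.7) and from 32.3 to 40.7 CPM (median 37.5) in ac-CYB5R3-KO hearts. The groups overlapped, and on the log2 scale the difference was -0.08 ± 0.10 (SE, adjusted p = 0.718), or -0.16 without ac-WT hearts 2 and 3. Keap1 had a median of 24.1 CPM in ac-WT and 23.9 CPM in ac-CYB5R3-KO hearts (log2 fold change -0.04, adjusted p = 0.886), and its sign turned with total counts and without ac-WT hearts 2 and 3. NRF2 is mainly set by degradation of the protein, which RNA levels do not measure.

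Among the quinone reductases, Nqo1 (chr8:109912125-109927106, minus strand), which reduces quinones including coenzyme Q by 2 electrons, was between 22.0 and 49.1 CPM in ac-WT hearts (median 36.8), with a range of 37.9 to 54.3 CPM (median 48.7) in ac-CYB5R3-KO hearts. All 6 ac-CYB5R3-KO hearts lay above the ac-WT median, but ac-WT hearts 4, 5 and 6 (47.1, 49.1 and 44.1 CPM) were within the ac-CYB5R3-KO range while hearts 1, 2 and 3 (29.6, 28.5 and 22.0 CPM) were below it. The difference, 0.37 ± 0.19 on the log2 scale, did not pass the test (p = 0.0766, exact permutation p = 0.0887) and was 0.17 (p = 0.284) without ac-WT hearts 2 and 3. Nqo2, a paralog that uses dihydronicotinamide riboside in place of NADPH, had medians of 14.5 and 13.7 CPM (adjusted p = 0.560). It lies within a gene on the opposite strand, Serpinb6a, and the strand setting of the counting is not given in the sources used here.

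Genes of glutathione synthesis and recycling held 3 of the 5 higher genes. Gss (chr2:155388917-155418546, minus strand), glutathione synthetase, joins glycine to gamma-glutamylcysteine in the last step of the pathway. It ran from 8.65 to 12.7 CPM in ac-WT hearts (median 10.3) and from 11.2 to 16.9 CPM (median 14.2) in ac-CYB5R3-KO hearts, and 5 of 6 ac-CYB5R3-KO hearts were above all ac-WT hearts. This log2 fold change was 0.45 ± 0.12 (p = 0.00279, adjusted p = 0.184, exact permutation p = 0.00866), and it kept this size, 0.45 (p = 0.00583), without ac-WT hearts 2 and 3. Gss overlaps Acss2, a gene of the opposite strand, over 22544 bases of their whole spans, introns included. Overlap of their exons was not computed, so any mixing of their reads if strand was ignored was not tested.

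Gclm (chr3:121948475-121972902, plus strand), the modifier subunit of glutamate-cysteine ligase, ran from 11.8 to 21.9 CPM in ac-WT hearts (median 17.7) and from 19.4 to 24.6 CPM (median 22.4) in ac-CYB5R3-KO hearts. The lowest values were those of ac-WT hearts 2 and 3, ac-WT heart 1 was next (15.3 CPM), and the other ac-WT hearts were between 20.1 and 21.9 CPM. Its log2 fold change of 0.39 ± 0.16 (p = 0.0282, exact permutation p = 0.0260) became 0.20 (p = 0.0827) without those 2 hearts. Gclm is overlapped by Gm17494, a non-coding gene of the opposite strand. Gsr (chr8:34762995-34808635, plus strand), which reduces oxidized glutathione with NADPH, ran from 12.7 to 15.7 CPM (median 14.0) in ac-WT and from 14.2 to 18.0 CPM (median 16.0) in ac-CYB5R3-KO hearts. This was the smallest of the 5 differences (0.21 ± 0.09, p = 0.0403, exact permutation p = 0.0303), and it was 0.17 (p = 0.106) without ac-WT hearts 2 and 3. The catalytic ligase subunit Gclc (log2 fold change 0.12, adjusted p = 0.711) and the cystine importer Slc7a11 (-0.10, adjusted p = 0.868) did not pass at the unadjusted threshold either.

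Of the 4 genes of NADPH supply and the pentose phosphate pathway none passed. Me1 (chr9:86474970-86589947, minus strand), cytosolic malic enzyme, had the lowest p of these. It was between 37.7 and 69.6 CPM in ac-WT hearts (median 48.1), with a range of 50.0 to 73.9 CPM (median 59.3) in ac-CYB5R3-KO hearts, with a log2 fold change of 0.30 ± 0.16 (p = 0.0762, exact permutation p = 0.0931), or 0.21 without ac-WT hearts 2 and 3. Of the pentose phosphate enzymes, the log2 fold changes of Pgd (0.20, adjusted p = 0.555), Taldo1 (0.17, adjusted p = 0.733) and G6pdx (-0.08, adjusted p = 0.875) were 0.07, -0.01 and -0.29 without those hearts. Taldo1 was between 55.0 and 60.2 CPM in ac-WT hearts 1, 2 and 3 and between 88.6 and 135 CPM in ac-WT hearts 4, 5 and 6, with the ac-CYB5R3-KO hearts between 73.5 and 120 CPM.

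In the thioredoxin system fold changes were negative for both mitochondrial genes and positive for the 3 cytosolic ones. The difference between these arms was not tested, and the signs of Txn1 and Txn2 turned without ac-WT hearts 2 and 3. Txnrd2 (chr16:18426510-18479166, plus strand), the mitochondrial thioredoxin reductase, ran from 17.9 to 34.4 CPM in ac-WT hearts (median 18.7) and from 14.6 to 19.7 CPM (median 16.5) in ac-CYB5R3-KO hearts. Only ac-WT hearts 2 and 3 (34.4 and 28.5 CPM) were above the ac-CYB5R3-KO range, and the other 4 ac-WT hearts were between 17.9 and 18.8 CPM. The log2 fold change of -0.43 ± 0.17 (p = 0.0228, exact permutation p = 0.0238) was -0.11 (p = 0.238) without them. Its cytosolic counterpart Txnrd1, an NRF2 target, had a log2 fold change of 0.36 ± 0.17 (p = 0.0513, exact permutation p = 0.0671) and 0.17 without the same hearts. Its unadjusted p was under 0.05 with DESeq2 and limma-voom. Mitochondrial Txn2 (-0.30, adjusted p = 0.453), cytosolic Txn1 (0.05, adjusted p = 0.885) and sulfiredoxin, Srxn1 (0.32, adjusted p = 0.496), which restores overoxidized peroxiredoxins, did not pass.

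Superoxide dismutases turn superoxide into hydrogen peroxide, and both intracellular enzymes were lower at an unadjusted p under 0.05. Sod1 (chr16:90220987-90226567, plus strand), the cytosolic copper-zinc enzyme, ran from 155 to 277 CPM in ac-WT hearts (median 188) and from 130 to 167 CPM (median 144) in ac-CYB5R3-KO hearts. Of the ac-CYB5R3-KO hearts 5 were below all ac-WT hearts. The log2 fold change was -0.47 ± 0.14 (p = 0.00583, adjusted p = 0.195, exact permutation p = 0.00649). Without ac-WT hearts 2 and 3 it was -0.23 and still had an unadjusted p of 0.0282, the only one of the 8 lower genes under 0.05. With total counts it was -0.14 and did not pass, or -0.40 after subtraction of the all-gene median, which largely undoes the change of scaling.

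Sod2 (chr17:13200705-13210985, plus strand), the manganese enzyme of the mitochondrial matrix, was between 189 and 398 CPM in ac-WT hearts (median 232), with a range of 139 to 215 CPM (median 189) in ac-CYB5R3-KO hearts. Its lowest ac-WT heart, heart 4, lay within the ac-CYB5R3-KO range. On the log2 scale the difference was -0.51 ± 0.18 (p = 0.0117, exact permutation p = 0.0130), and -0.24 (p = 0.0799) without the 2 ac-WT hearts that stood apart. The extracellular enzyme Sod3 (0.15, adjusted p = 0.756) and catalase, Cat (0.14, adjusted p = 0.590), had positive fold changes that did not pass, and that of Sod3 turned to -0.09 without the 2 hearts.

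Glutathione peroxidases reduce hydrogen peroxide and lipid peroxides with glutathione. Gpx3 (chr11:54715955-54723879, plus strand), the secreted enzyme, had the largest positive fold change of the 41 genes. Its levels in ac-WT hearts were 415, 287, 344, 778, 681 and 694 CPM (hearts 1 to 6) and in ac-CYB5R3-KO hearts 1119, 1397, 875, 1164, 674 and 1041 CPM. Of the ac-CYB5R3-KO hearts 5 were above all ac-WT hearts, and heart 5 was within the ac-WT range. The log2 fold change of 0.97 ± 0.26 (p = 0.00236, exact permutation p = 0.00866) was 0.72 (p = 0.00578) without ac-WT hearts 2 and 3, and the p was under 0.05 when any 1 of the 12 hearts was left out (0.0011 to 0.00656). Gpx1 (0.12, adjusted p = 0.712), Gpx7 (0.17, adjusted p = 0.730) and Gpx8 (0.20, adjusted p = 0.569) did not pass. Neither did Gpx4 (-0.24, adjusted p = 0.452), the enzyme that reduces lipid hydroperoxides in membranes.

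**Figure D2:**
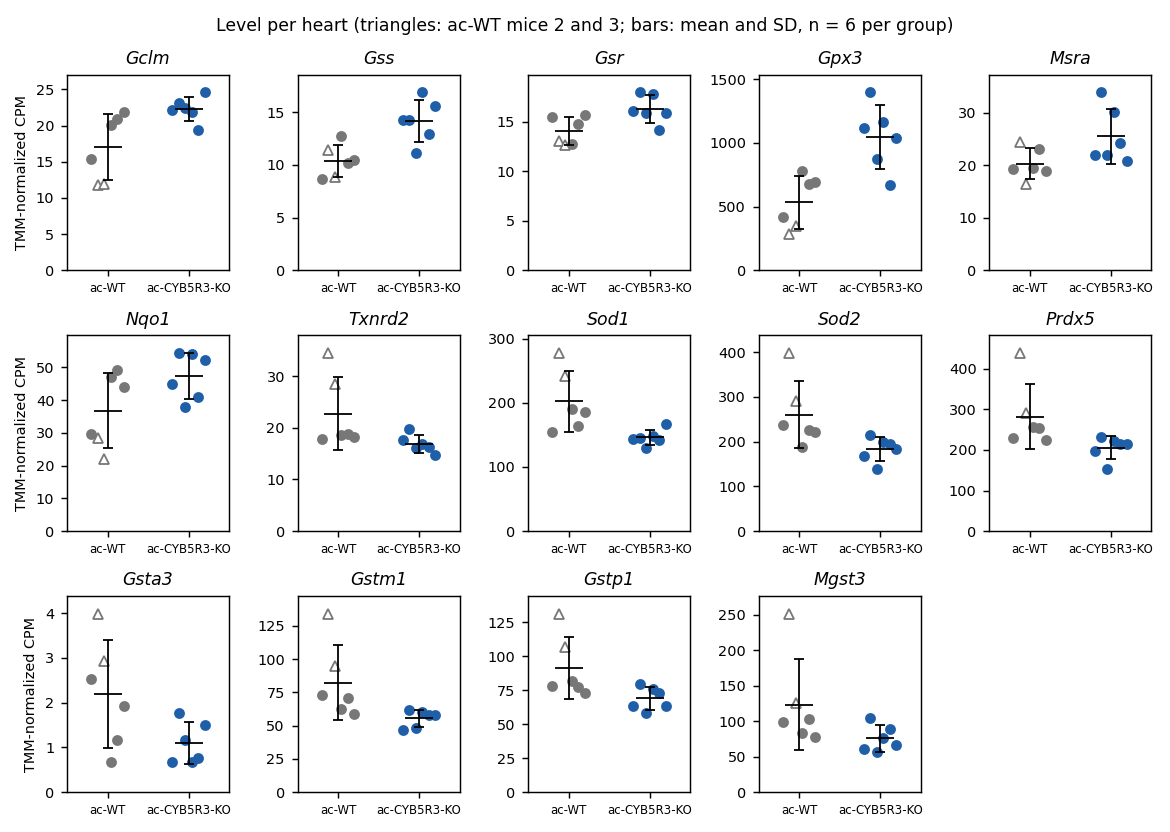
TMM-normalized CPM (y axes, starting at 0) in each heart of the 13 genes with an unadjusted p under 0.05 and of Nqo1. Circles are hearts, open triangles are ac-WT hearts 2 and 3, and black bars are the mean and SD of 6 hearts. In all 8 lower genes the triangles are the 2 highest points, and Gpx3 reaches 1397 CPM in the ac-CYB5R3-KO group against 778 CPM in the ac-WT group.

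Peroxiredoxins are abundant peroxide reductases that thioredoxin regenerates. Prdx5 (chr19:6981187-6984596, minus strand), which is found in mitochondria, peroxisomes and cytosol, ran from 225 to 438 CPM in ac-WT hearts (median 255) and from 153 to 233 CPM (median 215) in ac-CYB5R3-KO hearts. In this group 5 hearts were below all ac-WT hearts. The log2 fold change was -0.45 ± 0.17 (p = 0.0178, exact permutation p = 0.00866), or -0.21 (p = 0.0943) without ac-WT hearts 2 and 3. The log2 fold changes of the other 5 ranged from -0.26 in Prdx2 (adjusted p = 0.447) to 0.13 in Prdx1 (adjusted p = 0.614), with mitochondrial Prdx3 at -0.20 (adjusted p = 0.520), Prdx6 at -0.05 and Prdx4 at 0.00. Prdx5 and Prdx2 each overlap the end of a gene of the opposite strand (Trmt112 and Rnaseh2a), and Prdx2 and Prdx6 have related copies in the annotation (Prdx2-rs3 and Prdx6-ps2).

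Glutathione transferases, which attach glutathione to electrophiles, held 4 of the 8 lower genes among 6. Mgst3 (chr1:169302097-169323972, minus strand), a membrane-bound member, ran from 78.1 to 251 CPM in ac-WT hearts (median 101) and from 56.2 to 105 CPM (median 71.5) in ac-CYB5R3-KO hearts. The highest ac-WT value was that of heart 2, at 251 CPM, and the other 5 were between 78.1 and 126 CPM. The log2 fold change was -0.71 ± 0.27 (p = 0.0202, exact permutation p = 0.0390) and -0.25 (p = 0.167) without ac-WT hearts 2 and 3.

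Gstm1 (chr3:107815173-107820891, minus strand) ran from 58.6 to 134 CPM (median 71.8) in ac-WT and from 46.4 to 61.9 CPM (median 58.1) in ac-CYB5R3-KO hearts, with the log2 fold change at -0.57 ± 0.19 (p = 0.00879, exact permutation p = 0.00866). The p was 0.0504 without ac-WT hearts 2 and 3, with a log2 fold change of -0.24. Gstp1 (chr19:4035411-4037921, minus strand) ran from 73.1 to 131 CPM (median 79.9) in ac-WT and from 58.5 to 79.2 CPM (median 68.3) in ac-CYB5R3-KO hearts (-0.41 ± 0.15, p = 0.0180, exact permutation p = 0.0238), and its difference was -0.16 (p = 0.152) without the 2 hearts. The closely similar neighbour Gstp2 gave -0.49 (p = 0.0126, exact permutation p = 0.0173), and reads could have been split between the 2 genes.

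Gsta3 (chr1:21230670-21255442, plus strand) was the lowest of the transferases in level, between 0.664 and 3.98 CPM in ac-WT hearts (median 2.23), with a range of 0.667 to 1.77 CPM (median 0.969) in ac-CYB5R3-KO hearts. It had the largest negative fold change of the 41 genes (-0.99 ± 0.39, p = 0.0246), but the exact permutation p was 0.0801, limma-voom put it above the threshold, and the ac-WT hearts spread over the whole range of the ac-CYB5R3-KO hearts. Leaving out ac-WT hearts 2 and 3 gave -0.51, which did not pass. Gsta4 (0.15, adjusted p = 0.717), which conjugates products of lipid peroxidation, and Mgst1 (0.07, adjusted p = 0.876) did not pass.

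Of the 2 repair enzymes only Msra had an unadjusted p under 0.05. Msra (chr14:64741466-65074740, minus strand), which reduces oxidized methionine in proteins, ran from 16.4 to 24.5 CPM in ac-WT hearts (median 19.4) and from 20.9 to 33.9 CPM (median 23.1) in ac-CYB5R3-KO hearts. The ac-WT median was below all 6 of these, and 2 of them were above all ac-WT hearts. Its log2 fold change of 0.33 ± 0.14 (p = 0.0333, exact permutation p = 0.0498) was 0.35 (p = 0.0333) without ac-WT hearts 2 and 3. For Glrx, a glutaredoxin that frees protein thiols from bound glutathione, it was -0.06 (adjusted p = 0.887).

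Across these roles the same genes can be read by compartment and by regulator. The list of mitochondrial members held Sod2, Prdx3, Txn2 and Txnrd2, and left out Prdx5, which is also found in other compartments. All 4 on the list had negative fold changes with a median of -0.37, against -0.01 over all genes. Sod2 and Txnrd2 had an unadjusted p under 0.05. The negative sign turned in Txn2 and Prdx3 with total counts and in Txn2 without ac-WT hearts 2 and 3, where the median of the 4 was -0.08. The 5 extracellular or secretory members (Sod3, Gpx3, Gpx7, Gpx8 and Prdx4) all had fold changes above 0, with Gpx3 the 1 with an unadjusted p under 0.05. Of these, Sod3, Gpx7 and Prdx4 turned negative without ac-WT hearts 2 and 3. Of the 17 members widely listed as direct NRF2 targets, 12 had positive fold changes, 2 were higher (Gclm and Gsr) and 3 were lower (Gsta3, Gstm1 and Gstp1) at an unadjusted p under 0.05. Their median was 0.15, and 0.08 without the 2 hearts, where 0 of the 17 had a p under 0.05.

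**Figure D3:**
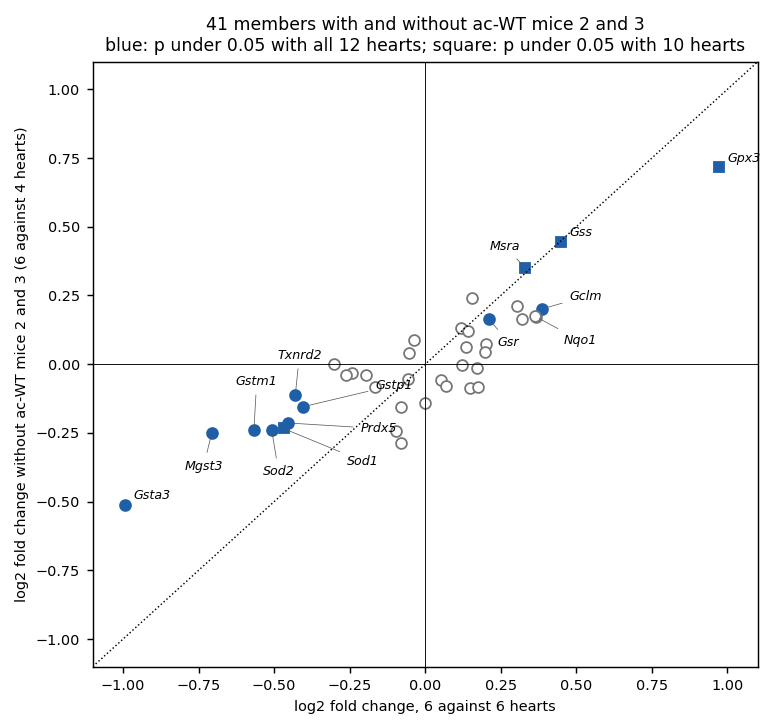
Log2 fold change of the 41 genes with all 12 hearts (x axis) against the log2 fold change without ac-WT hearts 2 and 3 (y axis). Blue points had an unadjusted p under 0.05 with all 12 hearts, squares had one with 10 hearts, and the dotted line marks equal values. Gss and Msra lie close to the line, while the 8 lower genes lie above it, closer to 0.

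With all 12 hearts, the spread between mice was larger in the ac-WT group. The coefficient of variation of CPM had a median of 25.3% over the 41 genes in ac-WT hearts and 13.2% in ac-CYB5R3-KO hearts, and it was larger in ac-WT hearts for 38 of the 41. Without ac-WT hearts 2 and 3 the ac-WT SD fell in Txnrd2 (from 2.10 to 0.128 CPM per kilobase of exon), Prdx2 (21.6 to 2.57) and Gpx4 (69.4 to 16.2), but not in Taldo1 (15.9 to 16.5) or Me1 (3.31 to 3.62). The comparison of spread between the groups was not repeated without these hearts, on which it depends in such genes. The members split in how they varied among the ac-WT hearts. In 16 of them ac-WT heart 2 was the highest of all 12 hearts, as in Sod1, Sod2, Txn2, Txnrd2, Gpx4 and Prdx5, and in 20 the lowest of all 12 was ac-WT heart 2 or 3, as in Gclm, Gpx3, Sod3, Gpx7 and Txnrd1. These 2 hearts were also those with the highest cardiomyocyte and lowest fibroblast marker sums, and the part of this in the members' values was not tested.

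**Figure D4:**
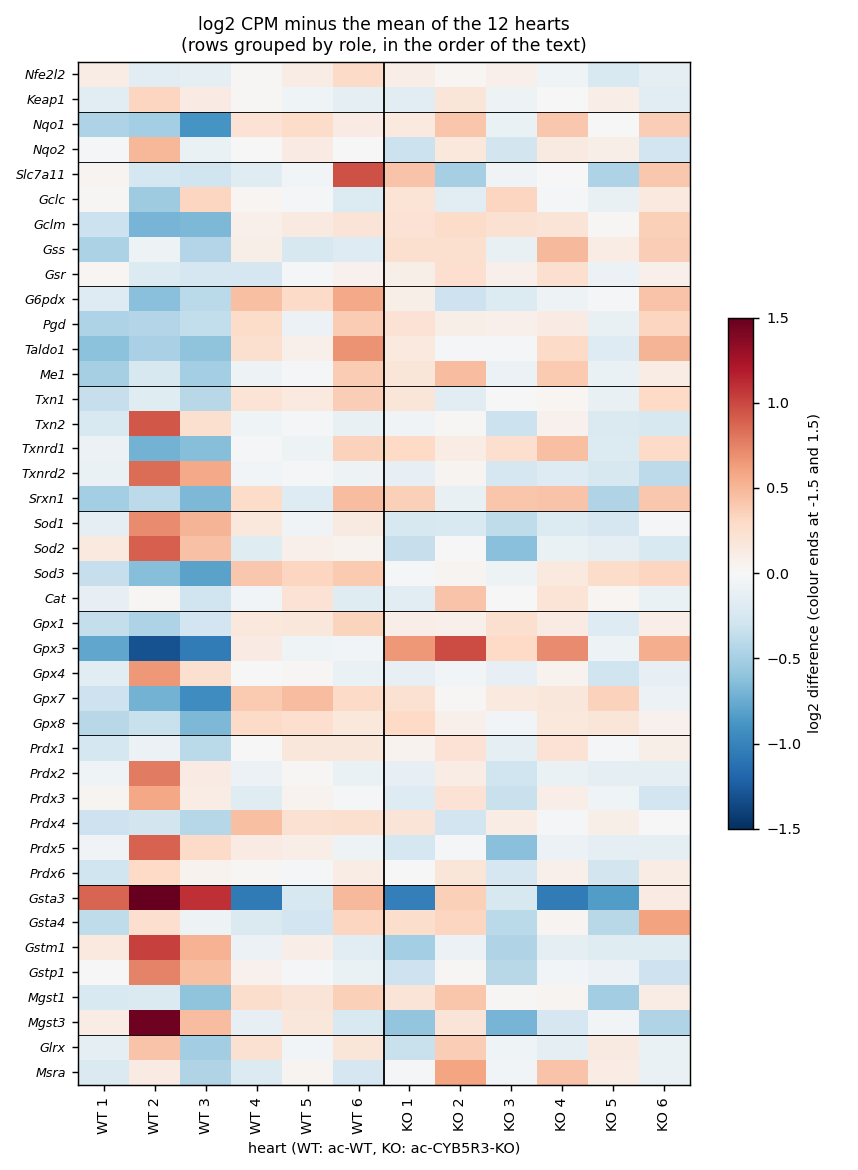
Log2 CPM of each of the 41 genes (rows, grouped by role) in each of the 12 hearts (columns), as the difference from the gene's mean over the 12 hearts. Red is above and blue is below the mean, and the colour scale ends at 1.5 in either direction. The columns of ac-WT hearts 2 and 3 hold the strongest colours in both directions, and the 6 ac-CYB5R3-KO columns vary less.

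Levels were compared between genes only per length, as CPM per kilobase of exon in the NCBIM37 annotation. This length joins the exons of all annotated transcripts of a gene (646 bases in Sod1, 5726 in Gss), so it can exceed that of the transcript present. The annotation used for the counts is not given, so the order is approximate. The highest mean levels in ac-WT hearts were those of Sod1 (313), Gpx4 (305) and Gpx3 (294), followed by Prdx5 (132) and Gpx1 (129), and the lowest those of Slc7a11 (1.30) and Gsta3 (1.58). In ac-CYB5R3-KO hearts Gpx3 was the highest at 576 CPM per kilobase, above Gpx4 (258) and Sod1 (226). Sod1, Gpx4 and Gpx3 were closer to each other in ac-WT hearts than the spread between mice (SD 73.7, 69.4 and 115 CPM per kilobase), as were Prdx5 and Gpx1 (37.3 and 29.7). The order rests on ac-WT hearts 2 and 3, without which Gpx3 was the highest at 354 CPM per kilobase, above Sod1 (268) and Gpx4 (267), and Gpx1 (143) stood above Prdx5 (113). Per kilobase the levels of NRF2 itself (10.3), Keap1 (5.59), Gclc (2.05) and Gss (1.81) were far lower in ac-WT hearts.

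**Figure D5:**
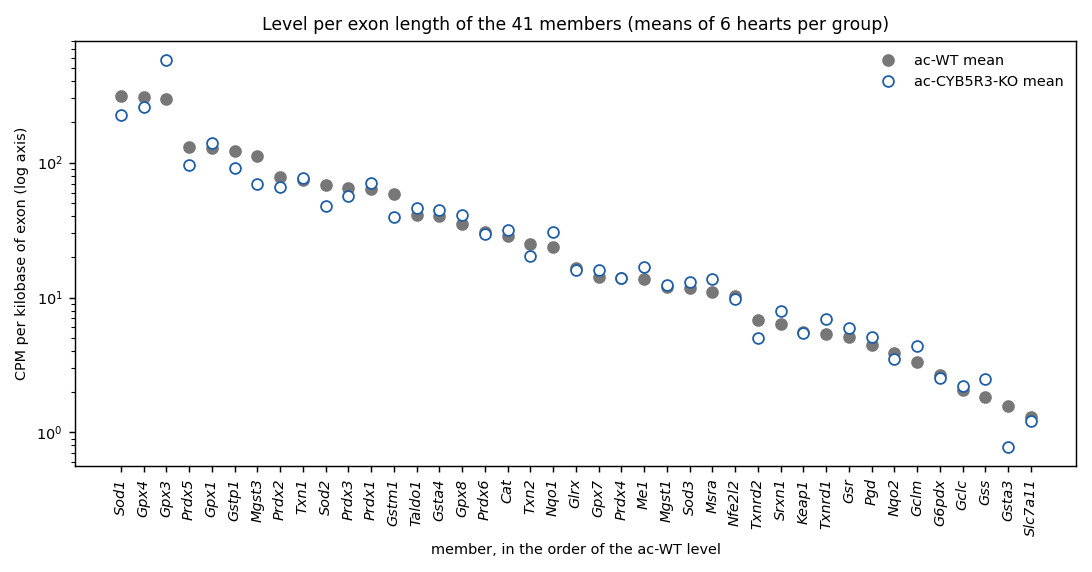
Mean CPM per kilobase of exon (y axis, logarithmic) of the 41 genes in the order of their ac-WT level (x axis). Grey points are means of 6 ac-WT hearts and open blue points are means of 6 ac-CYB5R3-KO hearts. Gpx3 is the gene that stands above the descending line in ac-CYB5R3-KO hearts (576 against 294), and Gsta3 stands below it.

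Genes of the same pathways outside the 41 were taken from 6 lists of 96 genes, of which 94 were tested. None had an adjusted p under 0.05 with edgeR or limma-voom, and 9 did with DESeq2, against 2.45% of all genes. At an unadjusted p under 0.05, 16 (17.0%) were lower, against 9.73% of all genes, and 9 (9.57%) were higher, against 4.91%. Without ac-WT hearts 2 and 3, 16 (17.0%) were lower, against 4.54% of all genes, and 6 (6.38%) were higher, against 3.44%. In 4 of them the groups lay fully apart (Gsta1, Gsta2, Glrx5 and Mthfd2), as in 1.55% of all genes.

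Among 20 other NRF2 targets 2 were lower and 2 higher at this threshold, and those with the lowest p were Blvrb and Ces1d. Blvrb, biliverdin reductase B, had 14.7 to 27.5 CPM in ac-WT hearts but at most 15.4 CPM, and at least 12.6 CPM, in ac-CYB5R3-KO hearts. On the log2 scale the difference was -0.63 ± 0.14 (p = 0.00049, exact permutation p = 0.00649), and -0.68 (p = 0.00054) without ac-WT hearts 2 and 3. Ces1d, a carboxylesterase, had a median of 11.3 CPM in ac-WT and 1.15 CPM in ac-CYB5R3-KO hearts (-2.88 ± 0.72, p = 0.00134, exact permutation p = 0.0195), and the difference was -2.003 on the log2 scale without those hearts (p = 0.0133). Its highest level was in ac-WT heart 2, in which 6 adipocyte markers summed to 4.44 CPM, against at most 0.333 CPM in the other ac-WT hearts and 1.59 CPM in ac-CYB5R3-KO hearts. Each of these markers was at 0 in at least 1 heart, and their part in the level of Ces1d was not tested. Hmox1, the stress-induced heme oxygenase, had overlapping groups with medians of 14.2 and 15.4 CPM (0.21 ± 0.33, adjusted p = 0.787). It was named for its place among NRF2 targets after its value was seen.

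Of 11 tested partners and repressors of NRF2, 2 were higher at an unadjusted p under 0.05 and 0 were lower. Mafk, a small MAF protein that pairs with NRF2 or with its competitor BACH1, ran from 16.7 to 25.3 CPM in ac-WT hearts (median 18.5) and from 24.2 to 29.1 CPM (median 27.3) in ac-CYB5R3-KO hearts. On the log2 scale it differed by 0.46 ± 0.11 (p = 0.00072, exact permutation p = 0.00433), and 0.41 (p = 0.00272) without ac-WT hearts 2 and 3. Gsk3b, a kinase that marks NRF2 for degradation, gave 0.21 ± 0.09 (p = 0.0419, exact permutation p = 0.0303), and 0.14 (p = 0.134) without them.

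Of 28 tested other glutathione genes 9 were lower and 4 higher at the same threshold, or 5 lower and 2 higher without ac-WT hearts 2 and 3. The lower ones included the transferases Gstt1 (-0.83), Gstk1 (-0.93), Gstm6 (-1.26), Gstm7 (-0.49) and Gstp2 (-0.49), and the mitochondrial glutaredoxin Glrx5 (-0.48). Without ac-WT hearts 2 and 3 Gstt1 (-0.68), Gstk1 (-0.53), Gstm6 (-1.19) and Glrx5 (-0.21) were still under that threshold, and Gstm7 (-0.21) and Gstp2 (-0.18) were not. The alpha-class transferases Gsta1 and Gsta2 had positive fold changes, unlike Gsta3. Gsta2 was between 0.333 and 0.996 CPM in ac-WT hearts and between 1.11 and 1.36 CPM in ac-CYB5R3-KO hearts (1.11 ± 0.25, p = 0.00056, exact permutation p = 0.00216, the smallest this test can give). Gsta1 was between 0.333 and 2.70 CPM in ac-WT hearts and between 3.46 and 5.02 CPM in ac-CYB5R3-KO hearts (1.32 ± 0.33, p = 0.00137, exact permutation p = 0.00216). Without ac-WT hearts 2 and 3 the fold changes were 0.89 in Gsta2 and 1.03 in Gsta1 on the log2 scale. The cartilage and airway markers lay apart in the same direction, and their part was not tested. Both groups lay fully apart in each gene, both levels are low, and the sequences of Gsta1 and Gsta2 are closely similar, so that the counting could have divided reads between them.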

How the data were processed

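Per the labels and the study's methods, RNA of 12 hearts was made into stranded total RNA libraries. The authors trimmed reads, aligned them with STAR and counted them per Ensembl gene with featureCounts, and deposited raw counts, neither normalized nor filtered. The submitters' processing notes name GRCm39 and the methods mm9. Annotation, strand setting and the treatment of multiply mapped reads are not given in the sources used here. The methods also describe FPKM-based tests, which were not used here. Columns were assigned to groups by sample labels, and 0 columns were unused.

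From the counts, genes passing filterByExpr (minimum count 10) were normalized by TMM and tested two-sided by edgeR's quasi-likelihood method (version 4.0.16, R 4.3.3) with no covariate and Benjamini-Hochberg adjustment over 17847 genes. Standard errors are the log2 fold change divided by the square root of the F statistic. The biological coefficient of variation was 26.5%. Total counts ran from 43393183 to 53754284 per heart, and intervals of counting error were not needed beside this spread. For single genes, and for the mean over each marker list, an exact permutation test, two-sided, used log2(CPM + 1). It ran over 924 placements of the mice, with a smallest p of 0.00216. Each library was made from 1 mouse.

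Each fit was repeated with limma-voom (limma 3.58.1), DESeq2 (version 1.42.0), total counts, DESeq2 size factors, other count filters, library sizes without mitochondrially encoded genes, a replicate block, leaving out each heart, and leaving out ac-WT hearts 2 and 3. Scripts were tested on simulated data.

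Symbols were found for 31027 of 53700 identifiers (57.8%), and for 166 of 169 genes on the lists besides the members. The members and lists were chosen with earlier results of these data known. Described in full are members with an unadjusted p under 0.05, the member with the lowest p of any other role, Nqo1, and from each other list the genes with an adjusted p under 0.05 or else the 2 with the lowest p. Other lists' genes named besides these were chosen after their values were seen. With all 12 hearts, marker lists did not pass for endothelial (exact permutation p = 0.991), smooth muscle (p = 0.411), fibroblast (p = 0.444), macrophage (p = 0.890) and lymphocyte markers (p = 0.102). Without ac-WT hearts 2 and 3, lower at an unadjusted p under 0.05 were 3 of 14 cardiomyocyte, 3 of 9 fibroblast, 2 of 7 smooth muscle, 3 of 8 macrophage and 0 of 8 endothelial markers, against 4.54% of all genes. All 5 red blood cell markers and 1 of 5 lymphocyte markers were then higher, against 3.44%. Of the adipocyte markers 0 were tested (p of the list 0.900).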

Additional observations from a re-analysis of the deposited data

Results flagged for a closer look

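In 8 of the 108 groups of 6 hearts examined (54 genes), 1 heart lay farther from the others than Dixon's 95% critical value for 6 samples allows, where chance gives about 1 in 20 groups, or 5.40. Of these, 6 were ac-WT heart 2, and all were the highest value of their group. Nqo2 was 20.4 CPM in ac-WT heart 2 and between 13.5 and 15.7 CPM in the other ac-WT hearts. Mitochondrial thioredoxin, Txn2, was 177 CPM there, against 79.4 to 110 CPM in the other 5. Prdx2 was 371 CPM, against 201 to 235 CPM, Prdx3 133 CPM, against 78.5 to 96.1 CPM, and Prdx5 438 CPM, against 225 to 290 CPM. Mgst3 was 251 CPM, against 78.1 to 126 CPM. The cystine importer Slc7a11 was 26.4 CPM in ac-WT heart 6, against 11.0 to 14.0 CPM, and Msrb3, a methionine sulfoxide reductase outside the 41 genes, was 76.2 CPM in the same heart, against 50.9 to 59.7 CPM.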

How the results depend on the processing

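The count of members at an adjusted p under 0.05 was 0 in all settings but DESeq2, which gave 2. Lower members numbered 8 with edgeR, 0 with total counts and 1 without ac-WT replicates 2 and 3, and from 5 (without ac-WT heart 2) to 8 when each heart was left out. Higher members numbered 5, 3 without ac-WT replicates 2 and 3, and from 3 (without ac-WT heart 1, 2 or 3, or ac-CYB5R3-KO heart 2, 4 or 6) to 8 (without ac-WT heart 6). The other pathway genes lower at an unadjusted p under 0.05 numbered 16, or 5 with total counts. Sign turned with total counts, whose median over all genes was 0.26, in Nfe2l2 (0.15), Keap1 (0.26), Nqo2 (0.12), Slc7a11 (0.10), G6pdx (0.10), Txn2 (0.049), Gpx4 (0.082), Prdx2 (0.071), Prdx3 (0.11), Prdx6 (0.23) and Glrx (0.22), none of which had passed. Without ac-WT replicates 2 and 3 it turned in Keap1 (0.090), Taldo1 (-0.013), Txn1 (-0.058), Txn2 (0.00070), Sod3 (-0.087), Gpx1 (-0.0046), Gpx7 (-0.082), Prdx4 (-0.14), Prdx6 (0.040) and Mgst1 (-0.079). Prdx4, at 0.00075 with edgeR and TMM factors, was -0.0014 with DESeq2 and -0.0013 with its size factors, but 0.21 with total counts. Leaving out single hearts gave ranges across 0 in Keap1 (-0.077 to 0.042), Slc7a11 (-0.20 to 0.16), G6pdx (-0.18 to 0.041), Txn1 (-0.0069 to 0.14), Prdx4 (-0.064 to 0.10), Prdx6 (-0.11 to 0.017), Mgst1 (-0.016 to 0.16) and Glrx (-0.14 to 0.040). The cause was not tested. Replicate numbers name different mice, and deviations of same-numbered mice had correlations from -0.16 to 0.36 over 6 pairs, so the numbers were not taken as pairs. With the number as a block, 8 members were lower, 6 higher and 0 passed the adjusted threshold. The block brought Nqo1 and Txnrd1 under an unadjusted p of 0.05 and took Gsr over it. Txnrd1 was under it also with no count filter and with library sizes without mitochondrially encoded genes, and with total counts Me1 came under it and Gclm went over it. Depth limits Gsta3 most among the members, at 0.664 to 3.98 CPM per heart.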

Other observations

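Of 10 other NADPH sources, 4 were lower and 1 higher at an unadjusted p under 0.05, without an adjusted p under 0.05. Mthfd2, the mitochondrial folate enzyme, ran from 2.91 to 7.66 CPM in ac-WT hearts, with a median of 5.42, and reached 7.78 to 9.75 CPM in ac-CYB5R3-KO hearts, with a median of 8.35, so that the groups lay fully apart (log2 fold change 0.75 ± 0.20, p = 0.00209, exact permutation p = 0.00216). It was 0.52 without ac-WT hearts 2 and 3. Nnt, the transhydrogenase of the inner mitochondrial membrane, in which C57BL/6J mice are known to carry a deletion, was low in all hearts, at 0.341 to 1.36 CPM in ac-WT and 0.176 to 0.407 CPM in ac-CYB5R3-KO hearts (-1.29 ± 0.37, p = 0.00372, exact permutation p = 0.0152), and was -0.78 without the 2 hearts. Mitochondrial Idh2 (-0.68) was also lower at that threshold, and was -0.26 without the 2 hearts.

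Among 10 NADPH oxidase subunits and other oxidant sources 1 was lower and 0 were higher at an unadjusted p under 0.05, and without ac-WT hearts 2 and 3 the count was 5 lower and 0 higher. Xdh, which makes superoxide while it oxidizes xanthine, had 30.5 to 54.7 CPM in ac-WT and 16.7 to 35.3 CPM in ac-CYB5R3-KO hearts. It was the 1 lower gene with all 12 hearts (-0.45 ± 0.18, p = 0.0277, exact permutation p = 0.0346), but not without the 2 hearts (-0.31, p = 0.111). Maob, a monoamine oxidase of the outer mitochondrial membrane, gave -0.36 ± 0.17 (adjusted p = 0.347). None of 15 other thioredoxin and methionine sulfoxide genes passed an unadjusted p of 0.05, and those with the lowest p were Sesn3 (0.40, adjusted p = 0.425) and Msrb3 (0.19, adjusted p = 0.456).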
